A study of Rattus norvegicus with 24 samples.

Results

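The genes described here are those listed as NRF2 regulators and their classic targets: Nfe2l2, Keap1, Hmox1, Hmox2, Nqo1, Gclc, Gclm, Gsr and Gss. All probe sets that the platform annotation gives to exactly 1 of these symbols were taken, which made 11 probe sets for 9 genes, out of 31042 probe sets and 14217 genes measured. The rule uses no measured value. A place on the list does not show that a gene is an NRF2 target, and Hmox2 encodes the constitutive haem oxygenase. None of the 11 was shared with another gene in the annotation. Keap1 and Gclc had 2 probe sets each, and in counts a gene is represented by its brightest one.

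The study used 24 Affymetrix rat arrays, 6 in each of 4 groups: round spermatids of aged rats, round spermatids of young rats, pachytene spermatocytes of aged rats and pachytene spermatocytes of young rats. All were untreated Brown Norway rats, 18 months old when aged and 4 months old when young, and the title numbers tie both fractions to the same 12 rats. The cells were released from the testis with enzymes and enriched by sedimentation, so each array holds a fraction and not a pure cell type. The labels give a lower limit of purity, not the purity of each fraction. Values are log2 signals, quantile normalized within a cell type for the age comparisons, and a call is an adjusted p under 0.05 in limma.

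NRF2, the product of Nfe2l2, is a transcription factor that switches on genes of antioxidant defence and detoxification. KEAP1 binds NRF2 in the cytoplasm and hands it to a ubiquitin ligase for degradation, and oxidants or electrophiles that modify KEAP1 let NRF2 accumulate and bind antioxidant response elements near its targets. Because this switch acts largely on the protein, mRNA levels of Nfe2l2 and Keap1 do not measure NRF2 activity. Male germ cells are open to oxidative damage, and in the testis glutathione is among the main low-molecular-weight antioxidants.

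Promoters of 7 of the 9 genes were found in RefSeq on GRCr8, as windows of 300 bases that end 50 bases after the start listed there. That start is not always the outermost one of the annotated gene: it lies 2166 bases inside the gene for Nfe2l2, 225 for Gclc, 37 for Gss and 28 for Hmox2. The core of the antioxidant response element, TGACNNNGC, was searched on both strands and found in 3 of these 7 windows and in 12.1% of 33469 rat promoters of the same length. The 3 windows that hold it are shown because this is the motif NRF2 binds with its partners; each reads 5′ to 3′ on the strand of its gene, with the core in capitals. Nfe2l2 lies on chromosome 3, minus strand (chr3:81028950-81029249), Hmox2 on chromosome 10, minus strand (chr10:11337563-11337862), and Gclm on chromosome 2, plus strand (chr2:213031885-213032184).
Nfe2l2: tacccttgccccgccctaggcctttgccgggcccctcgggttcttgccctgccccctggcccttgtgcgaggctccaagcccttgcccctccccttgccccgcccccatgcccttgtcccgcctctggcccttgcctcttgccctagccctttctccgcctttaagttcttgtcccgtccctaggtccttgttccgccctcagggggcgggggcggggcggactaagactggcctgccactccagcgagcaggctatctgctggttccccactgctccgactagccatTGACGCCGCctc
Hmox2: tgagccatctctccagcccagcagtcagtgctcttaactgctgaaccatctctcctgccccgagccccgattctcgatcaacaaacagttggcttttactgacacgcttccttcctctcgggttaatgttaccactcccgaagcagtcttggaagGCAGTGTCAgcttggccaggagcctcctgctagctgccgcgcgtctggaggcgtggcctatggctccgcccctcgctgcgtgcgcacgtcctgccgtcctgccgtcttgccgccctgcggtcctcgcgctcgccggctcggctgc
Gclm: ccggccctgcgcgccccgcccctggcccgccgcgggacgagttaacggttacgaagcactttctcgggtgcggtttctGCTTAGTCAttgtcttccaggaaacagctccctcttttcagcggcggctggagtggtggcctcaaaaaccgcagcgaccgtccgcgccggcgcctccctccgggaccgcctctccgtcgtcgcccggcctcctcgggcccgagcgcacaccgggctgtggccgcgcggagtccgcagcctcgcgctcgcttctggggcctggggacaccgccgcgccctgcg
Counted from the listed start as 1, with -1 for the base before it, the core lies at 39 to 47 in Nfe2l2, read along the gene. In Hmox2 it lies at -95 to -87 and in Gclm at -172 to -164, both on the opposite strand. Its first letters in Nfe2l2 overlap a short cyclic AMP response element, TGACG, which 21.2% of all promoters hold. The windows of Keap1, Nqo1, Gclc and Gss do not contain the letters of the antioxidant response element core. Sites outside the 300 bases were not searched for any gene, and Hmox1 and Gsr had no window. The full AP-1 site TGANTCA was in 0 of the 7 windows and in 7.33% of all promoters, and the full cyclic AMP response element TGACGTCA was in 0 of 7 and in 1.83%. A GC box, GGGCGG, was in 6 of 7 windows, all but that of Gss, against 33.1% of all promoters. All 7 windows were richer in G and C than the median promoter, at 54.7 to 76.7% against 51.7%. The share of all promoters does not allow for this. A match of letters is a description of the sequence and shows no binding.

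Some arrays stood apart. The first principal component of the 12 pachytene arrays held 73.9% of their variance, and on it young rats 1, 10 and 11 lay farthest from the aged rats. Each age result is also given without these 3 rats where the call ends or the value moves by over 1.5 times. Leaving out the young rats farthest from the aged lessens the age contrast along that component. Without them, calls among all 31042 probe sets fell from 11643 to 7651 in pachytene spermatocytes and from 5320 to 1705 in round spermatids. Array medians spanned 6.62 to 6.92 in aged and 7.02 to 7.38 in young pachytene spermatocytes, and 7.67 to 7.86 in aged and 7.56 to 7.71 in young round spermatids. In the deposited values the median change with age over all probe sets was therefore -0.24 in pachytene spermatocytes and 0.14 in round spermatids. In values centred on the hybridization controls (control-centred values) it was -0.12 and 0.18. With median centring it was 0.13 in pachytene spermatocytes and 0.01 in round spermatids, and with quantile normalization 0.05 and 0.00. Age effects below compare a transcript with all others of its array, and values given on these 3 other scales include such shifts. Of the markers of the 2 labelled cell types, all 13 of pachytene spermatocytes and all 11 of round spermatids lay above the median gene in every group. Relative to the mean of all genes, the round spermatid markers averaged 3.88 to 3.94 in aged and 3.79 to 3.97 in young round spermatids, and 3.06 to 3.31 in aged and 3.16 to 3.83 in young pachytene spermatocytes. The pachytene markers averaged 2.22 to 2.47 in aged and 1.72 to 2.13 in young round spermatids, and 3.99 to 4.07 in aged and 3.43 to 4.00 in young pachytene spermatocytes.

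The first comparison asked how the genes changed with age in pachytene spermatocytes, the cells in the long prophase of meiosis. Of the 9 genes, 5 were called: Nfe2l2, Keap1, Nqo1 and Gss were higher in aged rats and Hmox1 was lower. Among all genes 44.5% were called, 25.5% as higher and 19% as lower, so the count of members is near the background. In 4 of the 9 genes the 2 ages did not overlap, a pattern shown by 26.6% of all genes. The median log2 change over the 9 genes was 0.08, and over all genes 0.05.

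Hmox1, which encodes the inducible haem oxygenase and is on chromosome 19, had the largest age effect of the 9 genes. It lay at 9.20, 8.97, 8.83, 8.83, 9.35 and 9.22 (log2) in aged rats 2, 3, 5, 8, 9 and 10, against 10.69, 9.82, 10.03, 10.05, 9.81 and 9.83 in young rats 1, 2, 3, 10, 11 and 13. All 6 aged arrays were below all 6 young ones, and young rat 1 stood above the other young rats. It was 1.96-fold lower in aged rats (log2 change -0.97, SE 0.15, adjusted p = 0.000786). The call held on every scale, with changes of -0.88 to -1.26, and without young rats 1, 10 and 11 (-0.85, adjusted p = 0.000694). In bulk fractions, fewer cells of a type that holds a transcript and less of it per cell cannot be told apart.

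Markers of Sertoli cells, the somatic nurse cells of the tubule, moved with Hmox1. Of 18 measured Sertoli markers, 15 were lower in aged pachytene fractions and 1 was higher. Among all genes 19% were lower and 25.5% higher, which is the background for each marker list here. Their mean level relative to all genes was 0.76 to 1.10 in aged and 1.52 to 2.18 in young pachytene arrays, and 11 of the 18 in aged and 12 in young rats lay above the median gene. Markers of late spermatids also moved: 15 of 18 were lower and 0 higher, with means of 4.36 to 4.85 in aged and 4.72 to 5.81 in young rats. Macrophage markers, 19 measured, averaged -1.56 to -1.45 in aged and -1.52 to -1.23 in young rats, with 3 and 4 of the 19 above the median gene. Of 15 spermatogonia markers 5 were lower and 1 higher, with means of -1.40 to -1.33 in aged and -1.20 to -0.92 in young rats, without overlap. Calls as lower and higher were 3 and 3 for the macrophage markers and 4 and 1 for 15 Leydig markers. They were 2 and 5 for 13 peritubular markers and 1 and 2 for 10 endothelial and blood markers. The part of these cells in the Hmox1 result was not tested.

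**Figure D1:**
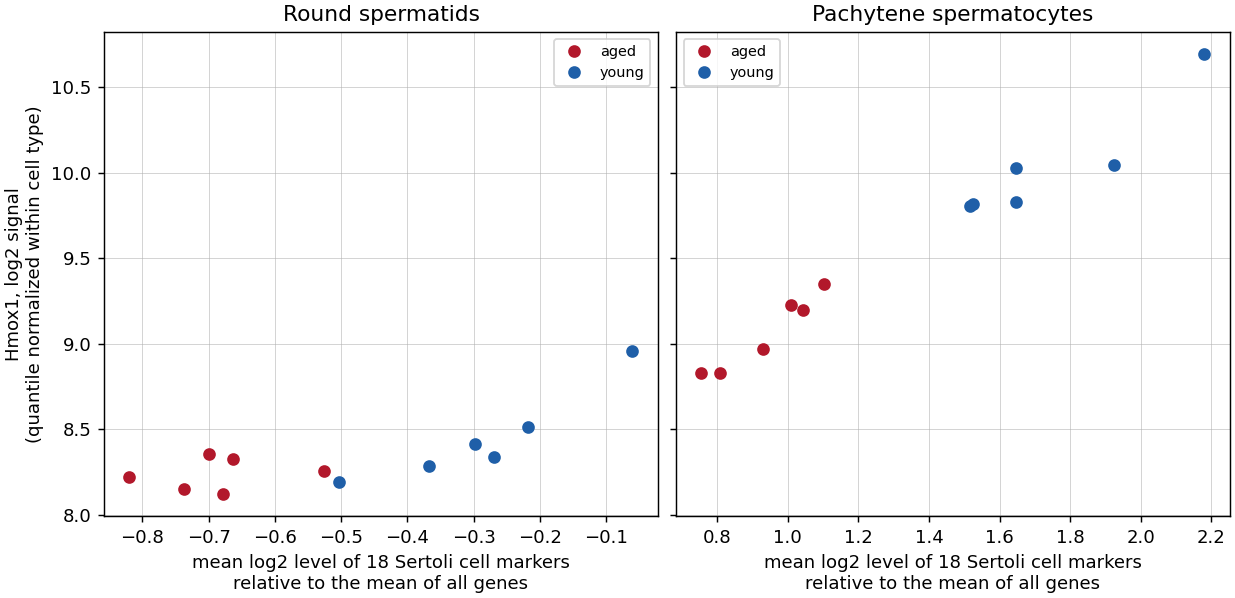
Each point is an array: the x axis is the mean log2 level of 18 Sertoli cell markers relative to the mean of all genes, and the y axis is the Hmox1 log2 signal, with aged rats in red and young rats in blue. In pachytene spermatocytes the aged arrays lie at marker levels of 0.76 to 1.10 with Hmox1 at 8.83 to 9.35, and the young arrays at 1.52 to 2.18 with Hmox1 at 9.81 to 10.69.

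Nfe2l2 lay at 10.38, 10.22, 10.52, 10.29, 10.64 and 10.48 in the aged pachytene arrays, against 9.82, 10.14, 10.11, 9.39, 8.97 and 10.08 in the young ones (rats in the same order as for Hmox1, here and below). The ages did not overlap, and young rats 10 and 11 were the lowest of the young. Nfe2l2 was 1.59-fold higher in aged rats (0.67, SE 0.18, adjusted p = 0.0129). It was called on every scale, with changes of 0.45 to 0.82. Without young rats 1, 10 and 11 the change was 0.32 and still called (adjusted p = 0.0181).

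Keap1, whose product keeps NRF2 low, is on chromosome 8. Its brighter probe set, 1370066_at, lay at 10.71, 10.72, 10.71, 10.77, 10.72 and 10.74 in aged pachytene arrays, against 10.17, 10.59, 10.63, 10.37, 10.39 and 10.60 in young ones. The aged values lay close together and all above the young. The gene was 1.21-fold higher in aged rats (0.27, SE 0.07, adjusted p = 0.0130), and the second probe set, 1387810_at, was 1.39-fold higher (0.47, SE 0.10, adjusted p = 0.00443). The call of the brighter probe set was lost in deposited values (0.11, adjusted p = 0.176) and in control-centred values (0.23, adjusted p = 0.0514), both of which carry a negative shift of all probe sets. With young rats 1, 10 and 11 left out it was 0.13 (adjusted p = 0.0499), and the second probe set 0.29 (adjusted p = 0.0217). In deposited values the second probe set averaged 8.57 ± 0.14 in aged and 8.52 ± 0.13 in young arrays (SD, n = 6 each), so its rise also depended on the scale.

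Glutathione is made in 2 steps: glutamate-cysteine ligase, of the catalytic subunit GCLC and the modifier subunit GCLM, makes the dipeptide, and glutathione synthetase (GSS) adds glycine. Gss, on chromosome 3, lay at 8.18, 8.19, 8.33, 8.14, 8.39 and 8.28 in aged pachytene arrays, against 7.98, 7.91, 7.98, 7.59, 8.05 and 7.86 in young ones, without overlap. It was 1.28-fold higher in aged rats (0.36, SE 0.08, adjusted p = 0.00408). In deposited values it was -0.08 (adjusted p = 0.513) and in control-centred values 0.04 (adjusted p = 0.796), so its rise was a rise relative to the other transcripts of the array.

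For the first step no call was made on the brightest probe set. Gclc, on chromosome 8, averaged 6.93 ± 0.17 in aged and 7.18 ± 0.19 in young pachytene arrays (SD, n = 6 each; change -0.25, SE 0.10, adjusted p = 0.0643). It was called without young rat 3 (-0.29, adjusted p = 0.0367) or 13 (-0.29, adjusted p = 0.0368), and as lower in deposited (-0.63) and control-centred values (-0.51), and it was -0.10 without young rats 1, 10 and 11. Its second probe set, 1372523_at, was lower in aged rats (-0.30, SE 0.11, adjusted p = 0.0456), and that call was lost without young rats 1, 10 and 11 (-0.11, adjusted p = 0.461) and when young rat 1, 2, 10 or 11 or aged rat 2, 5, 8, 9 or 10 was left out (-0.25 to -0.32). The mean of both probe sets was -0.27 (adjusted p = 0.0401). Gclm averaged 12.01 ± 0.05 in aged and 11.93 ± 0.20 in young arrays (change 0.08, 95% interval -0.10 to 0.26, adjusted p = 0.461). With median centring Gclm was 0.40 higher and called (adjusted p = 0.0191), and without those 3 rats it was -0.07 (adjusted p = 0.345).

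The remaining 3 genes are Nqo1, Gsr and Hmox2. Nqo1 (chromosome 19), a quinone reductase, lay at 7.67, 7.72, 7.69, 7.81, 7.82 and 7.65 in aged pachytene arrays, against 7.51, 7.43, 7.55, 7.36, 7.70 and 7.60 in young ones, with 3 aged values above all young. It was 1.15-fold higher (0.20, SE 0.06, adjusted p = 0.0242). The direction turned in deposited values (-0.22, adjusted p = 0.0566) and in control-centred values (-0.10, adjusted p = 0.409), and no call was made with median centring (0.15, adjusted p = 0.0605) and without young rat 10 (0.16, adjusted p = 0.0554), aged rat 8 (0.18, adjusted p = 0.0546) or aged rat 9 (0.18, adjusted p = 0.0548). Gsr (chromosome 16), which returns oxidised glutathione to its reduced form, averaged 5.55 ± 0.15 in aged and 5.76 ± 0.24 in young arrays (-0.21, 95% interval -0.44 to 0.02, adjusted p = 0.138), and was called as lower in deposited (-0.52) and control-centred values (-0.40); with young rats 1, 10 and 11 left out it was -0.03 (adjusted p = 0.829). Hmox2 (chromosome 10), the constitutive haem oxygenase, averaged 11.56 ± 0.09 in aged and 11.86 ± 0.38 in young arrays (-0.30, 95% interval -0.62 to 0.01, adjusted p = 0.113). The young Hmox2 values ran from 11.47 to 12.47, with rats 1, 10 and 11 above all aged rats, and without those 3 the adjusted p was 0.993. Hmox2 was called as lower without young rat 2 (-0.38, adjusted p = 0.0421) and in deposited values (-0.40, adjusted p = 0.0420).

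**Figure D2:**
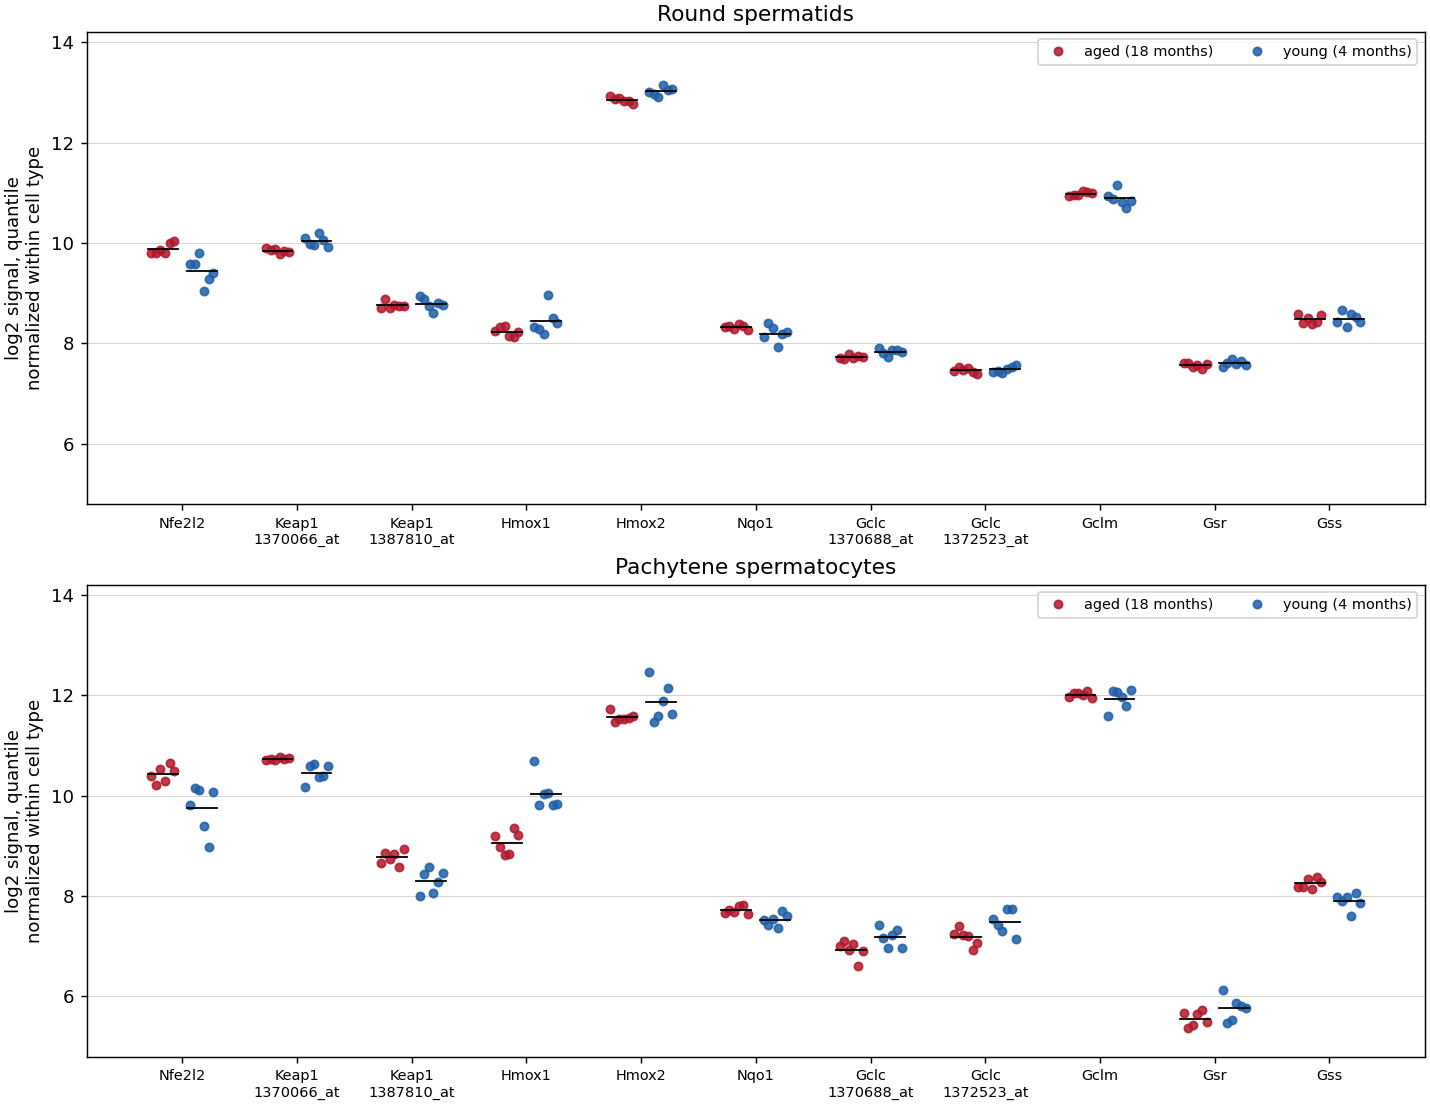
The log2 signal of every probe set on every array is shown for round spermatids (top) and pachytene spermatocytes (bottom), with aged rats in red at the left of each pair, young rats in blue and a bar at the mean of 6 rats. Hmox1 in pachytene spermatocytes has all aged points (8.83 to 9.35) under all young ones (9.81 to 10.69), and Nfe2l2 has the aged points higher.

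In round spermatids, the haploid cells after meiosis, 4 of the 9 genes were called: Nfe2l2 was higher in aged rats and Keap1, Hmox2 and Gclc were lower. Of all genes 24.9% were called, 12.4% as higher and 12.5% as lower. The ages did not overlap in 1 of the 9 genes, Keap1, and in 11.7% of all genes. The median change over the 9 genes was -0.05, and over all genes 0.00. Each of the 4 calls was lost when young rats 1, 10 and 11 were left out, as given below. In that fit calls among all 31042 probe sets fell from 5320 to 1705, so calls were lost across the whole array. These rats were singled out in the pachytene arrays. On the first principal component of the round spermatid arrays, young rat 13 (-13.9) lay farther from the aged rats than young rat 1 (-9.81). Pachytene markers moved with age in these fractions, 6 of 13 higher in aged rats and 0 lower, against 12.4% and 12.5% of all genes. Their means were 2.22 to 2.47 in aged and 1.72 to 2.13 in young arrays. Of 18 late spermatid markers 4 were lower and 0 higher, and of 15 spermatogonia markers 4 were lower and 1 higher. Calls as lower and higher were 3 and 2 for 15 Leydig markers and 1 and 0 for 19 macrophage markers. They were 0 and 1 for 13 peritubular markers and 1 and 0 for 10 endothelial and blood markers. The part of any of these cells in the calls was not tested.

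Nfe2l2 lay at 9.79, 9.80, 9.85, 9.80, 10.002 and 10.04 in aged round spermatids, against 9.57, 9.58, 9.81, 9.05, 9.27 and 9.41 in young ones. The groups overlapped through young rat 3 alone, and 3 aged values were above all young. The gene was 1.35-fold higher in aged rats (0.43, SE 0.10, adjusted p = 0.0116), and on the other scales the change was 0.52 to 0.70 and called. It was 0.29 without young rats 1, 10 and 11 (adjusted p = 0.0659).

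The brighter Keap1 probe set lay at 9.91, 9.85, 9.89, 9.78, 9.84 and 9.81 in aged round spermatids, against 10.10, 9.98, 9.97, 10.21, 10.05 and 9.92 in young ones. Every aged value was below every young one, with the nearest pair at 9.91 (aged) and 9.92 (young). It was 1.14-fold lower in aged rats (-0.19, SE 0.05, adjusted p = 0.0121). The second probe set gave -0.03 (95% interval -0.14 to 0.08, adjusted p = 0.753). The fall was relative to the array: in deposited values the change was 0.07 (adjusted p = 0.376), in control-centred values 0.11 (adjusted p = 0.256) and with median centring -0.07 (adjusted p = 0.567). Without young rats 1, 10 and 11 it was -0.11 (adjusted p = 0.121).

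Hmox2 lay at 12.93, 12.88, 12.89, 12.83, 12.82 and 12.78 in aged round spermatids, against 13.002, 12.97, 12.91, 13.15, 13.04 and 13.06 in young ones. Of the aged values, 5 were below all young. It was 1.12-fold lower in aged rats (-0.17, SE 0.04, adjusted p = 0.0119). It was not called in deposited values (-0.10, adjusted p = 0.186), in control-centred values (-0.06, adjusted p = 0.558) and without young rats 1, 10 and 11 (-0.12, adjusted p = 0.137).

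Gclc (1370688_at) lay at 7.71, 7.69, 7.78, 7.71, 7.75 and 7.73 in aged round spermatids, against 7.91, 7.80, 7.73, 7.87, 7.87 and 7.83 in young ones. It was 1.08-fold lower (-0.11, SE 0.03, adjusted p = 0.0388), and the second probe set gave -0.02 (adjusted p = 0.804). The direction turned in deposited values (0.03) and in control-centred values (0.07). The signal is dim: 1370688_at averaged 7.80 in aged and 7.76 in young round spermatids in deposited values. The absent control TrpnX averaged 6.90 and 6.77 there. The call ended without any 1 of young rats 1, 10, 11 and 13, or of aged rats 2, 3, 8, 9 and 10, with changes of -0.09 to -0.11. Without young rats 1, 10 and 11 the change was -0.06 (adjusted p = 0.430).

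The other 5 genes were not called in round spermatids. Hmox1 lay at 8.12 to 8.35 (median 8.24) in aged and 8.19 to 8.96 (median 8.37) in young arrays, with young rat 10 highest (change -0.21, 95% interval -0.43 to 0.01, adjusted p = 0.191). Without young rats 1, 10 and 11 its change was -0.06 (adjusted p = 0.678), that of Nqo1 0.02 and that of Gclm 0.03, and Gss turned to 0.01. Sertoli markers were lower in aged round spermatid fractions too, 9 of 18 by call and 0 higher, against 12.5% and 12.4% of all genes. Their means were -0.82 to -0.53 in aged and -0.50 to -0.06 in young arrays. Nqo1 averaged 8.33 ± 0.04 in aged and 8.20 ± 0.16 in young arrays (0.13, adjusted p = 0.173), and it was called without young rat 2 (0.17, adjusted p = 0.0476). Gclm averaged 10.99 ± 0.04 in aged and 10.89 ± 0.15 in young arrays (0.10, adjusted p = 0.309), and it was called without young rat 3 (0.15, adjusted p = 0.0212). In deposited and control-centred values both were called as higher, Nqo1 at 0.26 and 0.30 and Gclm at 0.35 and 0.39. Gsr changed by -0.05 (95% interval -0.12 to 0.03) and Gss by -0.01 (95% interval -0.13 to 0.11).

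**Figure D3:**
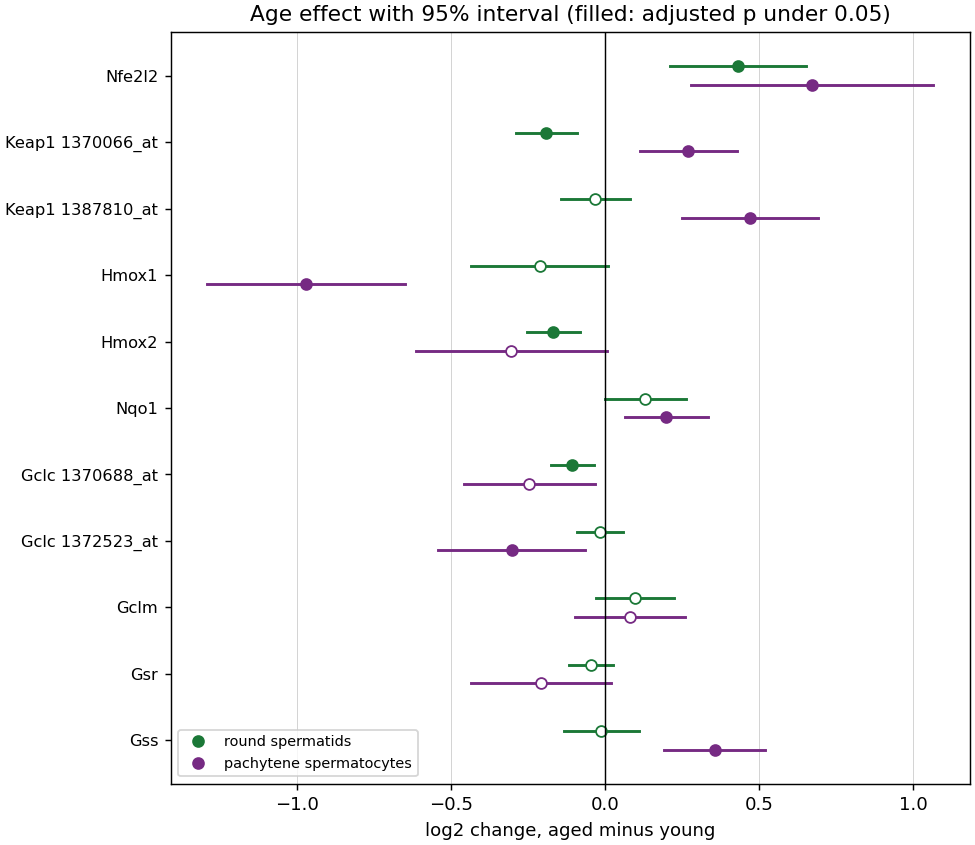
Age effects (log2, aged minus young) are drawn per probe set with 95% intervals, in green for round spermatids and violet for pachytene spermatocytes, and filled points were called. Hmox1 lies at -0.97 in pachytene spermatocytes and -0.21 in round spermatids, Nfe2l2 is above 0 in both, and the brighter Keap1 probe set lies on opposite sides of 0.

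The difference between the 2 age effects was tested directly. It was called for 2 of the 9 genes, 1 with a positive and 1 with a negative difference, against 16.2% of all genes, 7.31% positive and 8.93% negative. For Keap1 the age effect in round spermatids minus that in pachytene spermatocytes was -0.46 (SE 0.09, adjusted p = 0.00156), and its second probe set gave -0.35 (SE 0.09, adjusted p = 0.0141). Without young rats 1, 10 and 11 the Keap1 difference was -0.24 (adjusted p = 0.00208), and the second probe set was no longer called (-0.25, adjusted p = 0.0623). When the arrays were not quantile normalized it was -0.03 (adjusted p = 0.726), in a fit where the median of all probe sets was shifted by 0.26. For Hmox1 the difference was 0.62 (SE 0.20, adjusted p = 0.0432), and that call ended without young rat 1 or 3, and without aged rat 2, 3, 5, 8 or 10, with values of 0.46 to 0.64 and adjusted p of 0.0636 to 0.116. For Nfe2l2 the difference was -0.25 (95% interval -0.67 to 0.18, adjusted p = 0.468), and for Gss, called in pachytene spermatocytes alone, it was -0.23 (95% interval -0.40 to -0.06, adjusted p = 0.0696).

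The next comparison set round spermatids against pachytene spermatocytes. Hmox2 was the 1 gene of the 9 that differed by 2-fold or more, higher in round spermatids; Gclm and Hmox1 were lower in them by less than that. In all, 7 of 9 genes were called, 4 as higher (Hmox2, Nqo1, Gsr, Gss) and 3 as lower (Keap1, Hmox1, Gclm), against 88.3% of all genes, 49.8% as higher and 38.6% as lower. A rise of 2-fold or more was shown by 10.6% of all genes and a fall of that size by 9.88%. The arrays of the fractions differ at the low end: the absent control TrpnX averaged 6.90 in aged and 6.77 in young round spermatids, against 4.19 in aged and 4.38 in young pachytene spermatocytes. Values were aligned on 45 control probe sets before this test, and for dim probe sets cell type and array processing cannot be told apart.

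On the scale used between cell types, Hmox2 averaged 12.79 ± 0.05 in aged and 12.96 ± 0.08 in young round spermatids, and 11.51 ± 0.10 in aged and 11.85 ± 0.43 in young pachytene spermatocytes (SD, n = 6 each). It was 2.29-fold higher in round spermatids (log2 difference 1.20, SE 0.09, adjusted p = 1.02e-11). The rank of a probe set within its own array does not depend on the alignment, and Hmox2 ranked at the 97.8 to 98.4 percentile of probe sets in round spermatids and at 93.9 to 97.3 in pachytene spermatocytes, without overlap.

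Gclm averaged 11.13 ± 0.04 in aged and 11.05 ± 0.13 in young round spermatids, and 12.02 ± 0.06 in aged and 11.93 ± 0.23 in young pachytene spermatocytes. It was 1.85-fold lower in round spermatids (-0.88, SE 0.05, adjusted p = 3.36e-13), and ranked at 91.5 to 93.3 in round spermatids and at 94.4 to 96.3 in pachytene spermatocytes. Its partner Gclc gave no common answer: 1370688_at differed by 0.06 (SE 0.03, adjusted p = 0.0618; 0.07 and called without young rats 1, 10 and 11, adjusted p = 0.0482) and 1372523_at by -0.46 (SE 0.04), and both lie near the middle of the array, at percentiles of 34.2 to 58.2 in round spermatids and 43.4 to 61.5 in pachytene spermatocytes.

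Hmox1 averaged 8.44 ± 0.12 in aged and 8.69 ± 0.31 in young round spermatids, and 9.01 ± 0.17 in aged and 9.87 ± 0.35 in young pachytene spermatocytes. It was 1.83-fold lower in round spermatids (-0.87, SE 0.10, adjusted p = 2.15e-08), by -0.59 in aged rats alone and -1.13 in young rats alone. In aged rats it ranked at 65.0 to 70.5 in round spermatids and at 73.9 to 79.0 in pachytene spermatocytes, and in young rats at 66.8 to 79.3 in round spermatids and 83.1 to 89.6 in pachytene spermatocytes. Sertoli markers went the same way, with 15 of 18 lower in round spermatids and 3 higher, against 38.6% and 49.8% of all genes. Leydig markers did so too, with 8 of 15 lower and 3 higher. Macrophage markers went the other way, with 0 of 19 lower and 17 higher. So did peritubular markers, with 1 of 13 lower and 11 higher, and spermatogonia markers, with 3 of 15 lower and 10 higher. Of 10 endothelial and blood markers 3 were lower and 5 higher. The part of these cells in this difference was not tested.

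Nqo1 was 1.32-fold higher in round spermatids (0.41, SE 0.04), Gss 1.34-fold (0.42, SE 0.04) and Gsr 1.31-fold (0.39, SE 0.03). When arrays were not quantile normalized, the Nqo1 difference was 0.10 (adjusted p = 0.0771) and that of Gss was -0.01 (adjusted p = 0.929), so both rest on the normalization. Gsr ranked at 39.8 to 49.8 in round spermatids and at 21.2 to 34.5 in pachytene spermatocytes, in the range where the processing of the arrays differs.

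The Keap1 probe sets were called in opposite directions, 1370066_at at -0.24 (SE 0.04, adjusted p = 1.94e-05) and 1387810_at at 0.45 (SE 0.05). In young rats alone the brighter one differed by -0.01 (adjusted p = 0.933) and in aged rats alone by -0.48. Nfe2l2 differed by 0.01 (95% interval -0.20 to 0.22, adjusted p = 0.928), but by -0.55 (adjusted p = 8.54e-05) without quantile normalization, by -0.49 (adjusted p = 0.000506) with median centring and by -0.08 without young rats 1, 10 and 11, so no direction can be given for it.

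**Figure D4:**
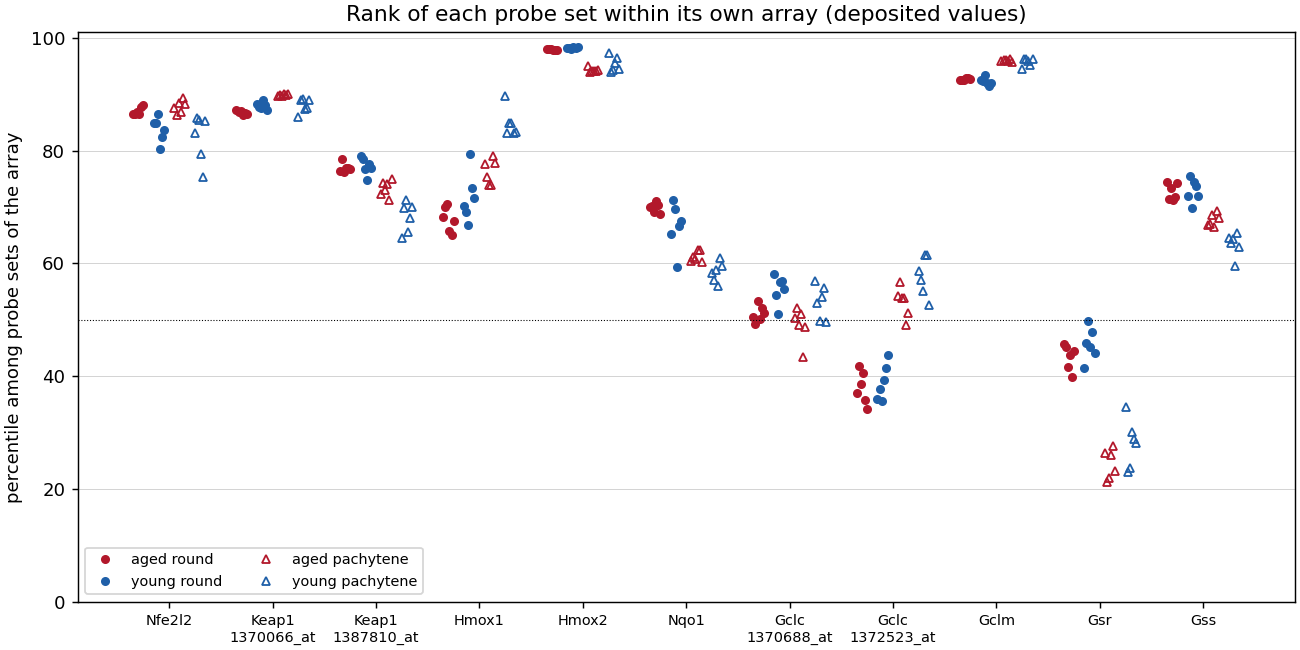
The rank of each probe set among all probe sets of its own array (percentile, from deposited values) is plotted for aged and young round spermatids (filled circles, red and blue) and aged and young pachytene spermatocytes (open triangles, red and blue); the dotted line is the 50th percentile. Hmox2 ranks higher and Gclm lower in all round spermatid arrays, at 97.8 to 98.4 and 91.5 to 93.3, and Gsr lies under the dotted line in every array.

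The genes whose levels followed 3 of the members most closely were sought by the lower of the Pearson correlations over the 12 pachytene and the 12 round spermatid arrays, among 13979 genes. Those nearest to Nfe2l2 were Myd88 (0.97), an adaptor of Toll-like receptors, Bambi (0.96), a decoy receptor of TGF-beta signalling, and Rnf144b (0.96). Keap1 was followed by Naa25 (0.96), Sanbr (0.95) and Metap1 (0.94), and Hmox1 by Lrba (0.95), Fchsd2 (0.95) and Ptpn11 (0.94). Each gene entered by its brightest probe set, so the second probe sets of Keap1 and Gclc were not used here. The arrays share age groups and libraries, and these values are descriptions. Among the 9 genes, Nfe2l2 and Hmox1 ran in opposite directions, with correlations of -0.87 in round spermatids and -0.58 in pachytene spermatocytes. In the same order, Nfe2l2 also ran opposite to Hmox2 (-0.96 and -0.68), Gclc (-0.76 and -0.78) and Gsr (-0.28 and -0.54). It ran with Nqo1 (0.76 and 0.42) and Gclm (0.77 and 0.53), and the sign changed for Gss (-0.28 and 0.66). Nfe2l2 and the brighter Keap1 probe set correlated at -0.84 in round spermatids and 0.76 in pachytene spermatocytes.

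The rest of the pathway was followed through 4 lists, some of whose genes stand in more than 1 list. Of 18 measured partners and regulators of NRF2, 2 were higher and 6 lower in aged pachytene spermatocytes, with a median of -0.13 against 0.05 over all genes, of which 25.5% were higher and 19% lower. This split depended on the scale: it was 6 higher and 3 lower with median centring, and 0 higher and 11 lower in deposited values. Among all 31042 probe sets it was 10625 higher and 4161 lower with median centring, and 1352 higher and 17801 lower in deposited values. Btrc, an F-box protein of another NRF2 ligase, was 0.41 higher, though the mean over its probe sets was -0.03. Hdac2, a histone deacetylase, was lower (-0.58), as were the mitochondrial phosphatase Pgam5 (-0.50) and the coactivator Crebbp (-0.23). In round spermatids 2 were higher and 0 lower, against 12.4% and 12.5% of all genes: Rbx1 (0.19), the RING subunit of the ligase that KEAP1 serves, and Syvn1 (0.16), a ubiquitin ligase of the endoplasmic reticulum. Ep300 (-0.26, adjusted p = 0.0768) and Gsk3b (-0.23, adjusted p = 0.0866) were not called.

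Of 40 other measured NRF2 targets, 21 were lower and 4 higher in aged pachytene spermatocytes, with a median of -0.40, against 19% and 25.5% of all genes. On the other scales the counts lay between 32 lower with 2 higher (deposited scale) and 19 lower with 6 higher (median centring). Among all 31042 probe sets those scales gave 17801 lower with 1352 higher, and 4161 lower with 10625 higher. Without young rats 1, 10 and 11, 16 of these targets were lower and 3 higher, with a median of -0.19, against 3285 and 4366 of all probe sets. The 4 targets with the smallest p were Gstp1 (-0.96), a glutathione transferase, Akr7a3 (-1.02) and Akr7a2 (-0.89), aldehyde reductases, and Abcc1 (-0.73), an exporter of glutathione conjugates. The Sertoli markers described above moved the same way, and their part in this count was not tested. In round spermatids 5 were higher and 11 lower, against 12.4% and 12.5% of all genes, with a median of -0.04 against 0.00; Nqo2, a quinone reductase, was higher (0.20), and Srxn1 (-0.63), which repairs oxidised peroxiredoxins, Gsta4 (-0.27) and Ptgr1 (-0.26) were lower. In deposited values that split turned to 18 higher and 3 lower, and without young rats 1, 10 and 11 it was 2 higher and 1 lower. Among all 31042 probe sets it was 16477 higher and 695 lower in deposited values, and 957 and 748 without those rats.

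The glutathione cycle list showed 5 higher and 5 lower of 21 in pachytene spermatocytes (median 0.03), shares near the 25.5% and 19% of all genes. These counts became 7 and 4 with median centring and 1 and 12 in deposited values. Among all 31042 probe sets 10625 were higher and 4161 lower with median centring, and 1352 and 17801 in deposited values. Ggt7 (1.03) and Ggt1 (0.28), of the gamma-glutamyl transferase family, and Chac1 (0.24), which degrades glutathione, were higher, and Gpx1, a glutathione peroxidase, was lower (-0.50). Ggt1 and Chac1 changed direction in deposited values (-0.16 and -0.19) and in control-centred values (-0.04 and -0.07). In round spermatids 3 were higher and 2 lower, against 12.4% and 12.5% of all genes. Deposited values gave 10 and 2 there, against 16477 and 695 of all 31042 probe sets. Oplah (-0.54), which opens 5-oxoproline to glutamate, and the glutaredoxin Glrx2 (-0.26) were lower, and Slc3a2 (0.22), the heavy chain of the cystine transporter, and Glrx3 (0.18) were higher.

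Of 19 genes of haem breakdown and iron, 5 were higher and 8 lower in aged pachytene spermatocytes (median -0.08), against 25.5% and 19% of all genes. The counts were 1 and 14 in deposited values, against 1352 and 17801 of all 31042 probe sets. The haem transporter Slc48a1 was 0.60 higher, and Slc11a2 (-0.83), an iron importer, Ireb2 (-0.66), a regulator of iron-handling mRNAs, and Urod (-0.58), an enzyme of haem synthesis, were lower. In round spermatids 1 was higher, Alas1 (0.40), the first enzyme of haem synthesis, and 5 were lower, among them Uros (-0.29), Urod (-0.25) and the biliverdin reductase Blvra (-0.12), which turned to 0.01 in deposited values. Of all genes 12.4% were higher and 12.5% lower there. The deposited values gave 7 higher and 0 lower in this list, against 16477 and 695 of all 31042 probe sets.

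**Figure D5:**
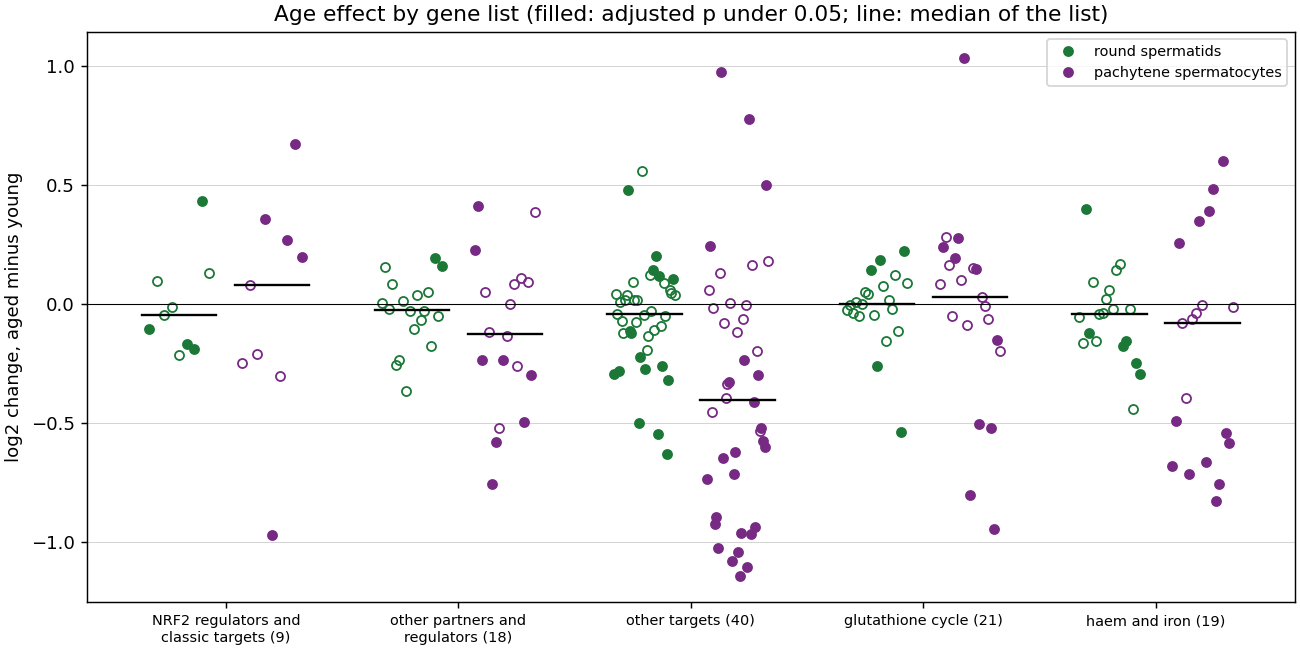
Each point is a gene's age effect (log2, aged minus young), in green for round spermatids and violet for pachytene spermatocytes, grouped by gene list with the number measured; filled points were called and the line is the list's median. The median of the other NRF2 targets in pachytene spermatocytes lies at -0.40 and those of the remaining lists lie between -0.13 and 0.08.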

How the data were processed

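RNA of 24 arrays was analysed from the log2 values as deposited, for 31099 probe sets; how the probes were summarised into these values is not stated in the labels or files read here. The labels' protocols describe total RNA and biotinylated cRNA. After leaving out 57 control probe sets, 31042 were tested; 20826 carry 1 gene symbol, 436 several and 9780 none. Age was tested within each cell type after quantile normalization, with limma 3.58.1 (lmFit, eBayes) in R 4.3.3 and Benjamini-Hochberg adjustment over all 31042. For cell types and the difference of age effects, an offset of 90.3 was added to linear pachytene values so that 45 controls matched (their mean difference was 0.61 ± 0.77 without the offset and -0.03 ± 0.17 with it, SD over controls), and all 24 arrays were quantile normalized. Differences of dim transcripts between fractions are compressed by it. The number of rats limits the precision.

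The members, the lists and the alternatives were chosen with earlier results of these data known. Every member was named, with up to 4 genes per list and age comparison by smallest p; members past the threshold got their value on every array. Both fractions of a rat, joined by the label number, correlated at -0.07 to 0.36 after removing group means, best with their own partner for 6 of 12 rats. A random block for the rat (correlation 0.06) changed no count of called members. Replicates are separate rats per the labels.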

Additional observations from a re-analysis of the deposited data

Results flagged for a closer look

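The age effect on Keap1 differed between cell types by a direct test, at -0.46 (round spermatids minus pachytene spermatocytes) for 1370066_at and -0.35 for 1387810_at. For Hmox1 the same test gave 0.62. In 44 groups of 6 arrays, the gap of the highest or lowest array was large relative to the group's range in 2, and chance alone gives about 1 in 20. These were Keap1 1387810_at in aged round spermatids, where rat 3 lay at 8.88, and Hmox1 in young pachytene spermatocytes, where rat 1 lay at 10.69.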

How the results depend on the processing

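In pachytene spermatocytes 5 genes were called, 4 to 6 when 1 rat was left out, and 1 over rats numbered 2, 3 and 10 alone, with the number as a replicate block (1) or without it (1); the fit without the block was added after seeing the data. Those numbers do not pair the ages: same-numbered rats correlated at -0.58 to 0.02 in pachytene and -0.30 to -0.02 in round spermatids. In round spermatids 4 genes were called, 3 to 5 when 1 rat was left out and 2 with median centring. The count was 0 with that block, 0 without it and 0 without young rats 1, 10 and 11. In those 3 fits limma gave 0, 1 and 3 genes at an unadjusted p under 0.05. Calls among all 31042 probe sets fell too. In round spermatids they were 5320 in the main fit, 3546 with median centring and 1705 without those 3 rats. With and without that block they were 0. In pachytene spermatocytes they were 11643, against 363 with the block and 1364 without it. For the difference 2 genes were called, 1 to 2 when 1 rat was left out, 1 without the offset and 5 with the offset but no quantile normalization. Over all probe sets the difference was called for 4054 in the main fit, 3614 without the offset and 25120 without quantile normalization. Between cell types 7 to 8 genes were called when 1 rat was left out. With the rat as a random replicate block the counts stayed at 7 and 2. The higher against lower split of members was 4 and 1 in pachytene spermatocytes, 1 and 4 in deposited values and 1 and 3 in control-centred values. In round spermatids it was 1 and 3, and 3 and 0 on either scale. Among all probe sets the pachytene split was 6866 and 4777, then 1352 and 17801 in deposited and 2256 and 7903 in control-centred values. The round spermatid split was 2670 and 2650, then 16477 and 695, and 8289 and 427. Between cell types the split of members was 4 and 3, and 2 and 4 without quantile normalization. For the difference it was 1 and 1, and 5 and 0 without quantile normalization, where all probe sets gave 25093 and 27. Scale changes turned the sign in pachytene spermatocytes of Nqo1 (-0.22 deposited, -0.10 control-centred), Gss (-0.079 deposited), Ggt1 (-0.16 and -0.039) and Chac1 (-0.19 and -0.067), and of Btrc (-0.026) with the mean over probe sets. Gclm turned to -0.056 over numbers 2, 3 and 10, with or without the block, and to -0.067 without young rats 1, 10 and 11. In round spermatids, in deposited and control-centred values, signs turned for Keap1 (0.069, 0.11), Keap1 1387810_at (0.15, 0.18), Gclc (0.031, 0.070), Gclc 1372523_at (0.12, 0.16), Gsr (0.088, 0.13), Gss (0.15, 0.19) and Blvra (0.015, 0.054), and for Ep300 in control-centred values (0.015). With median centring, Gss was 0.012 and Keap1 1387810_at 0.011. Over numbers 2, 3 and 10, with or without the block, Keap1 1387810_at was 0.034 and Gclc 1372523_at 0.0046, and without young rats 1, 10 and 11 Gss was 0.012. Leaving out 1 rat gave Gss -0.046 to 0.022 and Gclc 1372523_at -0.031 to 0.0011. Between cell types Nfe2l2 was -0.55 without quantile normalization, -0.49 with median centring, -0.082 without young rats 1, 10 and 11, -0.12 in aged rats alone and -0.042 to 0.043 when 1 rat was left out. Without quantile normalization Gclc was -0.036, Gss -0.0056 and Keap1 1387810_at -0.080, and with median centring Keap1 1387810_at was -0.022. With the mean over probe sets Keap1 was 0.10 and Gclc -0.20. The difference for Keap1 1387810_at was 0.11 without quantile normalization. Counts over lists moved by over 1.5 times too. Of the partners, 8 in pachytene spermatocytes became 5 without young rats 1, 10 and 11, and 2 in round spermatids became 7 in deposited values, 5 in control-centred values, 1 with median centring and 0 without those rats. Of the other targets 16 in round spermatids became 3 without those rats. Leaving out 1 rat also moved counts in round spermatids: the partners had 0 calls without young rat 1 or 11 or aged rat 8, 9 or 10, 1 without aged rat 3 and 7 without young rat 3; the other targets had 10 without young rat 11 or aged rat 10 and 9 without aged rat 9; the glutathione cycle had 3 without young rat 11 or 13 or aged rat 9. The glutathione cycle went to 12 in deposited values and 8 in control-centred values, against 5, and to 1 without those rats; haem and iron went to 1, against 6. Over numbers 2, 3 and 10 the 4 lists had 0, 3, 0 and 0 calls in pachytene spermatocytes with the replicate block and 0, 8, 0 and 3 without it, and 0 each in round spermatids. Wherever a list had 0 calls, 1 to 9 of its genes had an unadjusted p under 0.05 in limma. Where a cause is not named here, it was not tested. Signals near background, above all Gsr and Gclc, limit what can be said between cell types.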
